A study of Mus musculus with 6 samples.

Results

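The genes described here are 42 genes of the contractile apparatus and of actin stress fibres, taken by symbol from the 20323 gene rows of the deposited table, and each symbol had 1 row. By their known expression, 11 were treated as restricted to smooth muscle and myofibroblasts (ACTA2, ACTG2, TAGLN, CNN1, MYH11, MYLK, LMOD1, DES, SMTN, SYNPO2 and MYOCD). Another 28 are cytoskeletal genes that most adherent cells express, and 3 (MRTFA, MRTFB and SRF) are transcriptional regulators of both kinds. Expression was measured by RNA-seq in 6 libraries of RFB, a fibroblast line of the kidney. Cells of 3 libraries were given TGF-β, the cytokine that turns fibroblasts into contractile, matrix-producing myofibroblasts, and cells of the other 3 were given TGF-β and CXCL10, a chemokine added in a volume of 5 µl according to the sample titles. All 6 libraries thus come from TGF-β-treated cells of 1 line, and a group without TGF-β was not analysed here. The labels name the mouse as organism, while the rows are human genes with human Ensembl identifiers, so each level is a level on a human gene.

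Stress fibres are bundles of actin filaments crosslinked by α-actinin and drawn together by myosin II, whose activity is set by phosphorylation of its regulatory light chains. They are anchored at focal adhesions through talin, vinculin and zyxin. In myofibroblasts, α-smooth muscle actin is built into these bundles and raises the force they exert. Monomeric actin holds the coactivators MRTF-A and MRTF-B out of the nucleus. When filaments assemble, the MRTFs are released and switch on contractile genes together with SRF, while myocardin does so constitutively in smooth muscle.

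Counts per library lay between 12838106 and 15587409, and the 42 genes took 4.85% to 5.27% of them. All 10 fibroblast markers examined had a mean of at least 5 CPM (counts over library size, scaled by TMM, the trimmed mean of M-values), with summed levels of 61023 to 67745 CPM under TGF-β and 58561 to 63137 CPM with CXCL10. Of 9 pericyte and vascular smooth muscle markers 5 did so (CSPG4, NOTCH3, CNN1, MCAM and ABCC9). That list summed to 521 to 678 CPM under TGF-β and 418 to 579 CPM with CXCL10. KCNJ8 had 0 counts, and RGS5, PLN and MYH11 lay at or under 1.06 CPM in each library. Of the kidney epithelial, endothelial, leukocyte and skeletal muscle markers 1 gene in each list reached a mean of 5 CPM (PAX8, TEK, CD68 and TTN). MYOD1, MYOG, MYF5 and PAX7 had 0 counts. Replicate 1 stood apart in both groups. On the first principal component, which held 48.4% of the variance, TGF-β replicate 1 scored 5.54, replicates 2 and 3 scored -28.3 and -29.5, and CXCL10 replicate 1 scored 32.8 against 9.78 and 9.67. Nothing in the labels states that replicates are separate cultures, so p-values measure the spread between these libraries only, which may be technical.

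Of the 42 genes, 40 had enough counts to be tested, all but MYH11 and MYOCD. Without pairing of the libraries, edgeR's quasi-likelihood test passed none of them at an adjusted p under 0.05 (Benjamini-Hochberg over 11970 genes), and it passed 0% of all genes. At an unadjusted p under 0.05 it gave 17 of the 40, beside 20.5% of all genes. Libraries with the same replicate number deviated together from their group means, clearly for replicate 1 and weakly for replicates 2 and 3. A fit that pairs libraries by number called 11 of the 40 higher and 8 lower with CXCL10. Across all genes the paired fit called 17.7%, of which 9.71% were higher and 8.04% lower. Contractile genes are abundant, and abundant genes were called more often. Where the mean level was 100 CPM or more the paired fit called 39.1% of genes (25.5% higher and 13.6% lower), beside 16 of 35 members (45.7%, 11 higher and 5 lower), which is near that background. In bulk RNA, fewer cells of a type and less RNA per cell cannot be told apart. All 3 pairs differed in the same direction for 26 of the 40 members and for 50.3% of all genes. Here "rose" and "fell" stand for genes past the threshold of the paired fit, and changes are log2 differences in normalized counts, CXCL10 group minus TGF-β group, with the standard error (SE) of that fit.

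Of the 9 tested smooth-muscle-restricted genes 4 fell and 2 rose. That is 66.7% called, beside 17.7% of all genes and 39.1% of those with at least 100 CPM. The median change of the 9 genes was -0.11. In unpaired fits that median was -0.052 without TGF-β replicate 3, -0.023 without CXCL10 replicate 1 and -0.20 without CXCL10 replicate 2, and in paired fits -0.054, -0.22 and -0.053 without replicate 1, 2 or 3. Of the 28 general cytoskeletal genes 9 rose, 3 fell and 16 were not called. That is 42.9% called, near the 39.1% of genes with at least 100 CPM (25.5% higher and 13.6% lower). All 28 reached that level on average. Their median was 0.088, beside a median of -0.0054 over all genes tested. The general median was 0.046 in the paired fit without replicate 2. With MYLK and SMTN, which many cell types express, counted among the general genes, the smooth muscle class had 7 tested genes, 4 that fell, 1 that rose and a median of -0.34. The reverse move was not made for MYL9 (-0.12) and TPM2 (-0.099), general genes that are also typical of muscle. The 6 smooth muscle calls, LMOD1, DES, ACTA2, CNN1, ACTG2 and SMTN, were also made in paired fits that left out both libraries of replicate 1, 2 or 3. Those fits share libraries and the pairing with the full paired fit, so they are not separate evidence. Without pairing and over all libraries, edgeR called none of the 6 and DESeq2 called only DES. Calls in the general class varied more between the paired fits. They were 16 higher and 3 lower without replicate 1, and 3 higher and 0 lower without replicate 2 or without replicate 3. Calls over all genes moved in the same way. They were 1162 higher and 962 lower in the full paired fit and 1533 and 1313 without replicate 1. Without replicate 2 they were 680 and 561, and without replicate 3 they were 539 and 365. No test compared the classes, since their genes were assigned with earlier results of these data known.

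**Figure D1:**
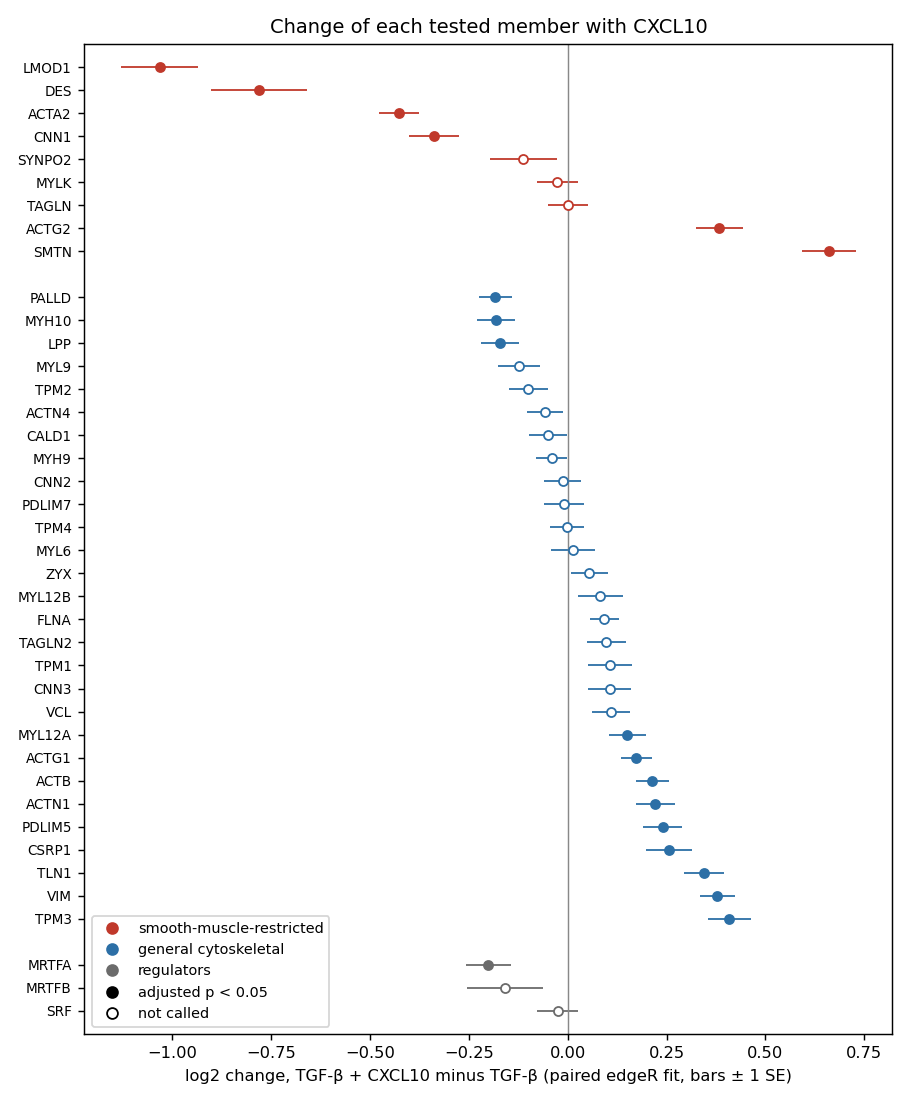
Log2 change of each of the 40 tested genes (x axis, TGF-β + CXCL10 minus TGF-β, paired edgeR fit), grouped by class, with bars of 1 SE and filled points for an adjusted p under 0.05. The smooth-muscle-restricted genes span -1.03 for LMOD1 to 0.66 for SMTN, while the general genes lie between -0.18 and 0.41.

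The actins moved in opposite directions. ACTA2 (ENSG00000107796) encodes α-smooth muscle actin, the standard marker of myofibroblasts. It stood at 974, 1231 and 1247 CPM in TGF-β replicates 1 to 3 and at 657, 981 and 956 CPM in CXCL10 replicates 1 to 3. Each CXCL10 library was lower than the TGF-β library of the same number, but TGF-β replicate 1 lay below CXCL10 replicate 2, so the groups overlapped. ACTA2 fell by 0.43 (SE 0.05, edgeR paired adjusted p = 8.60e-05, 0.184 unpaired). ACTG2 (ENSG00000163017), the γ-actin of visceral smooth muscle, held 870, 598 and 634 CPM under TGF-β and 992, 878 and 842 CPM with CXCL10. Again the replicate 1 library of the TGF-β group fell inside the range of the CXCL10 group. ACTG2 rose by 0.38 (SE 0.06, edgeR paired adjusted p = 0.000621, 0.182 unpaired).

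Per length, in FPKM, both smooth muscle actins were about equally abundant, with a mean of 760 FPKM for ACTA2 and 751 for ACTG2 over the 6 libraries. The ratio of ACTA2 to ACTG2 FPKM was 1.58 and 1.61 in TGF-β replicates 2 and 3 and 0.870 in TGF-β replicate 1. With CXCL10 it was 0.553, 0.895 and 0.913 in replicates 1 to 3. The order of both actins was thus reversed in every CXCL10 library and also in TGF-β replicate 1. Actin genes are close paralogs, and how reads that match several of them were counted is not given in the sources used here, so the split between actins is uncertain.

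Genes that bind smooth muscle thin filaments also differed from one another. LMOD1 (ENSG00000163431), leiomodin 1, nucleates actin filaments in smooth muscle. Its level was 18.7, 38.5 and 35.4 CPM under TGF-β and 8.78, 19.7 and 17.0 CPM with CXCL10. Within each replicate number the CXCL10 library held about the same fraction of its partner, with log2 differences of -1.07, -0.96 and -1.05. LMOD1 fell by 1.03 on the log2 scale (SE 0.10, edgeR paired adjusted p = 1.54e-05, 0.161 unpaired), the largest change of the 40 genes. CNN1 (ENSG00000130176), calponin 1, an inhibitor of the myosin ATPase that marks differentiated smooth muscle, stood at 107, 147 and 157 CPM and at 75.8, 132 and 122 CPM. TGF-β replicate 1 lay inside the range of the CXCL10 group, and the pairs differed by -0.50, -0.16 and -0.37. CNN1 fell by 0.34 (SE 0.06, edgeR paired adjusted p = 0.00238, 0.376 unpaired). It was not called in the unpaired fit without TGF-β replicate 1, which called all of the other 18 genes of the paired fit in the same direction.

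TAGLN (ENSG00000149591), transgelin or SM22α, crosslinks actin and was the most abundant smooth muscle transcript per length, at a mean of 1099 FPKM. It held 1723, 1613 and 1649 CPM under TGF-β and 1549, 1745 and 1698 CPM with CXCL10. The lowest library of all was CXCL10 replicate 1 and the highest CXCL10 replicate 2. The unpaired estimate was 0.0017 (SE 0.060, edgeR adjusted p = 0.991), and its sign turned with the scaling.

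DES and SMTN moved most after LMOD1, and in opposite directions. DES (ENSG00000175084) encodes desmin, the intermediate filament protein of muscle. Its levels were 12.2, 17.9 and 20.1 CPM under TGF-β and 6.89, 11.1 and 11.4 CPM with CXCL10, without overlap. DES fell by 0.78 (SE 0.12, edgeR paired adjusted p = 0.000689), and was 1 of 4 members that DESeq2, which called 3.41% of the genes it gave an adjusted p, passed without pairing (adjusted p = 0.0440). SMTN (ENSG00000183963) encodes smoothelin, an actin-binding protein of contractile smooth muscle with a shorter and a longer form. It rose from 143, 83.6 and 90.2 CPM to 193, 149 and 149 CPM, again without overlap. Its change was 0.66 (SE 0.07, edgeR paired adjusted p = 3.14e-05, 0.161 unpaired).

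The remaining smooth muscle genes were flat or near the limit of detection. MYLK, the kinase that phosphorylates the regulatory light chains, lay between 120 and 130 CPM in all 6 libraries (-0.026, SE 0.05). SYNPO2, synaptopodin 2 or myopodin, a Z-disc and stress fibre protein, lay between 34.9 and 45.6 CPM (-0.11, SE 0.08). MYH11, the smooth muscle myosin heavy chain, had 1, 3 and 3 counts under TGF-β and 0 in each CXCL10 library. There 3 counts would equal 0.207 to 0.234 CPM before TMM scaling. MYOCD, which encodes myocardin, had 7, 5 and 16 counts under TGF-β and 21, 6 and 9 with CXCL10. Both had too few counts for the fits over all 6 libraries. MYOCD entered the unpaired fit without TGF-β replicate 1 (0.27) and the paired fit without replicate 2 (0.36) and was called in neither. The smooth muscle actins, transgelin and calponin 1 were expressed in cells whose libraries held almost no transcripts of smooth muscle myosin.

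**Figure D2:**
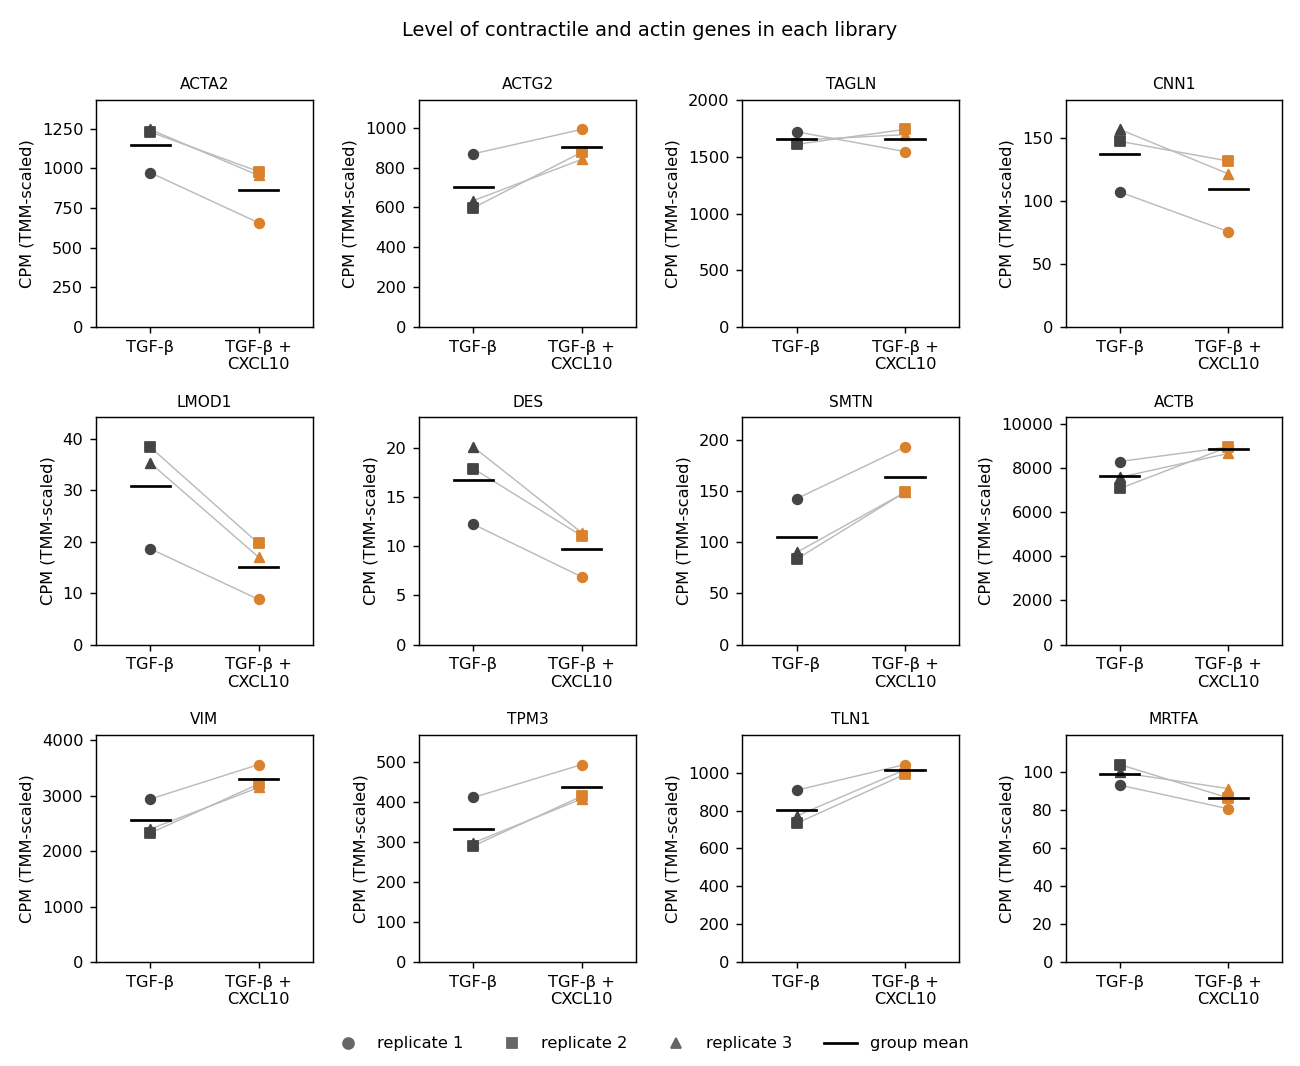
Level of 12 genes in each library (y axis, CPM scaled by TMM, from 0; points are libraries, lines join equal replicate numbers, black bars are group means). ACTA2, CNN1, LMOD1 and DES are lower and ACTG2, SMTN, VIM, TPM3 and TLN1 higher in the CXCL10 library of each number, and TGF-β replicate 1 lies nearest to the CXCL10 libraries in each of these genes.

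Vimentin and the cytoplasmic actins rose. VIM (ENSG00000026025), the intermediate filament protein of mesenchymal cells, held 2943, 2327 and 2400 CPM under TGF-β and 3565, 3215 and 3152 CPM with CXCL10. The groups did not overlap. VIM rose by 0.38 (SE 0.04, edgeR paired adjusted p = 6.98e-05), opposite to DES, with which it can copolymerize, and DESeq2 called it without pairing (adjusted p = 0.0149). ACTB (ENSG00000075624), β-actin, went from 8283, 7062 and 7569 CPM to 8941, 8940 and 8650 CPM, without overlap. It rose by 0.21 (SE 0.04, edgeR paired adjusted p = 0.00360, 0.161 unpaired). ACTG1, cytoplasmic γ-actin, rose by 0.17 (SE 0.04), from 4354 to 4967 CPM in the TGF-β group to between 5018 and 5340 CPM.

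TPM3 and TLN1 had the other larger rises of the general class. TPM3 (ENSG00000143549), a tropomyosin whose cytoplasmic forms coat filaments bearing non-muscle myosin, held 410, 290 and 297 CPM under TGF-β and 492, 414 and 407 CPM with CXCL10. Only TGF-β replicate 1 reached into the CXCL10 range. TPM3 rose by 0.41 (SE 0.05, edgeR paired adjusted p = 0.000195), and DESeq2 without pairing gave an adjusted p of 0.0496. TLN1 (ENSG00000137076), talin 1, links integrins to actin. It held 908, 733 and 772 CPM and then 1043, 992 and 1016 CPM, without overlap. TLN1 rose by 0.34 (SE 0.05, edgeR paired adjusted p = 0.000444), and DESeq2 without pairing gave an adjusted p of 0.0149. TPM3, TLN1 and VIM were the only general genes called in all 3 paired fits that leave out a replicate number.

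The other 4 general genes that rose did so by 0.15 to 0.26. CSRP1, a LIM protein of actin bundles, rose by 0.26 (SE 0.06), PDLIM5, an α-actinin-binding scaffold, by 0.24 (SE 0.05), and ACTN1, the main non-muscle α-actinin, by 0.22 (SE 0.05). The regulatory light chain MYL12A rose by 0.15 (SE 0.05, edgeR paired adjusted p = 0.0410), a call that was lost under scaling by library totals alone and in DESeq2 with pairing. None of these 4 genes was called in paired fits without replicate 2 or without replicate 3. CSRP1, PDLIM5, ACTN1 and MYL12A each had groups that did not overlap. Counting all members, groups did not overlap in 14 of the 40 tested genes (35%), beside 22.3% of all genes and 32.7% of those with at least 100 CPM.

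The general genes that fell did so by similar amounts. PALLD, palladin, a scaffold along stress fibres, fell by 0.18 (SE 0.04, edgeR paired adjusted p = 0.00879), from 938 to 1080 CPM under TGF-β to between 814 and 958 CPM. MYH10, the heavy chain of non-muscle myosin IIB, also fell by 0.18 (SE 0.05), from 200 to 240 CPM to 182 to 214 CPM. LPP, a zyxin relative at focal adhesions, fell by 0.17 (SE 0.05), from 197 to 214 CPM to 173 to 192 CPM, without overlap. None of PALLD, MYH10 and LPP was called in paired fits without replicate 2 or without replicate 3. DESeq2 with pairing called PALLD but not MYH10 or LPP. The 16 general genes that were not called lay between -0.12 (MYL9) and 0.11 (VCL). They include the filamin FLNA (0.093, SE 0.04), the main heavy chain MYH9 (-0.040, SE 0.04), and ZYX (0.055, SE 0.05), TPM4 (-0.0015, SE 0.04), CALD1 (-0.049, SE 0.05) and MYL6 (0.014, SE 0.06). Scaling by library totals alone added MYL9 (-0.17) and TPM2 (-0.14) to the genes that fell. That scaling moved the median of all genes by -0.044 and gave 8 general genes higher and 5 lower.

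Shares within protein families, computed from FPKM and so per length, show which isoforms the cells expressed. ACTB made up 51.0% to 52.5% of the FPKM of ACTA2, ACTG2, ACTB and ACTG1 under TGF-β and 53.9% to 54.4% with CXCL10. The share of ACTA2 was 8.32%, 12.0% and 11.6% under TGF-β and 5.40%, 7.96% and 8.01% with CXCL10. These shares did not overlap, and neither did the FPKM of ACTA2, whose lowest TGF-β library held 728 and highest CXCL10 library 727 FPKM. ACTG2 held 7.20% to 9.56% and 8.78% to 9.76%, which overlapped, and ACTG1 28.7% to 29.6% and 29.1% to 30.4%.

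Tropomyosins were led by TPM1, at 34.4% to 36.1% and 35.7% to 37.0% of the family's FPKM. The share of TPM2, the tropomyosin typical of muscle, was 25.6%, 27.7% and 27.2% under TGF-β and 23.6%, 24.6% and 24.7% with CXCL10, while that of TPM3 was 8.56%, 6.62% and 6.91% and then 11.1%, 8.72% and 8.77%. Neither share overlapped between the groups. Among the regulatory light chains, MYL9, the form of smooth muscle, held 40.9% to 43.1% under TGF-β and 36.0% to 39.3% with CXCL10, and MYL12A 29.9% to 32.7% and 32.9% to 35.5%. Myosin heavy chain was almost all MYH9, at 93.9% to 94.5% and 94.5% to 94.7%. Of the calponins CNN2 was the main one, at 51.3% to 55.7% in the 6 libraries, with 14.5% to 25.8% for CNN1. ACTN1 held 62.8% to 67.7% of α-actinin under TGF-β and 67.7% to 70.8% with CXCL10, where TGF-β replicate 1 overlapped narrowly with CXCL10 replicate 2.

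Summed over each class, the smooth muscle genes hardly differed between the groups. Their sum was 4012, 3898 and 4007 CPM under TGF-β and 3640, 4080 and 3965 CPM with CXCL10. The sum of the general genes was 46428, 42943 and 44323 CPM and then 47397, 49153 and 48173 CPM, without overlap. As a share of both classes, in FPKM, the smooth muscle genes made up 13.3%, 14.1% and 13.9% under TGF-β (13.8% ± 0.401, SD, n = 3) and 11.8%, 12.9% and 12.7% with CXCL10 (12.5% ± 0.608, SD, n = 3). The share was lower in every CXCL10 library than in any TGF-β library. Without ACTA2 and TAGLN, the 2 most abundant genes of the class, the direction was the opposite. The other smooth muscle genes summed to 992, 788 and 782 FPKM under TGF-β and 1024, 983 and 941 FPKM with CXCL10, where TGF-β replicate 1 lay inside the CXCL10 range. Most of this sum was ACTG2, at 837, 604 and 593 FPKM under TGF-β and 883, 812 and 776 FPKM with CXCL10. The opposite direction thus mainly reflects ACTG2, whose split from the other actins is uncertain, and not the class as a whole. Their share of these genes and the general class was 4.57% ± 0.431 (SD, n = 3) under TGF-β and 4.93% ± 0.200 (SD, n = 3) with CXCL10, with overlapping groups.

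**Figure D3:**
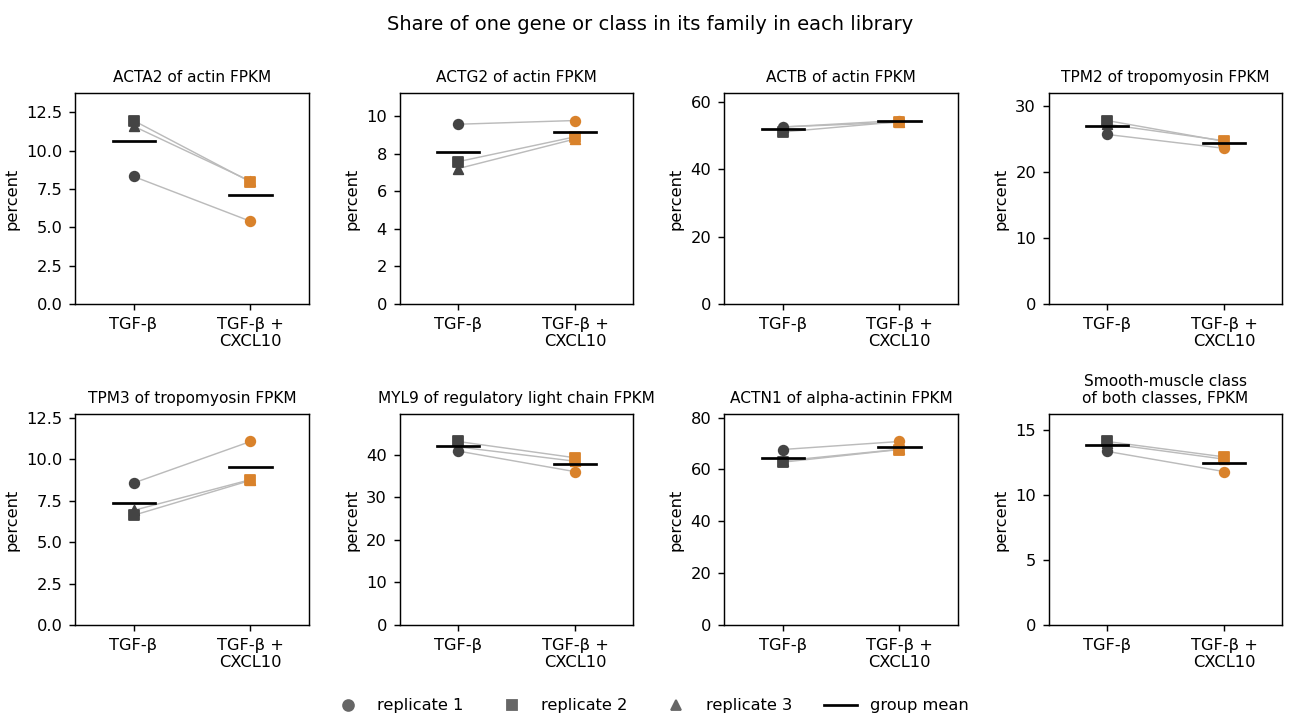
Share of single genes in the summed FPKM of their family, and of the smooth muscle class in both classes (y axis, percent, from 0), in each library, with lines joining equal replicate numbers and black bars for group means. ACTA2, TPM2, MYL9 and the smooth muscle class have lower shares and ACTB and TPM3 higher shares in each CXCL10 library than in any TGF-β library, while ACTG2 and ACTN1 overlap.

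The regulators differed little. MRTFA, which couples actin assembly to transcription, held 93.3, 104 and 99.95 CPM under TGF-β and 80.8, 86.6 and 91.5 CPM with CXCL10. All CXCL10 libraries lay under all TGF-β libraries, and MRTFA fell by 0.20 (SE 0.06, edgeR paired adjusted p = 0.0266, 0.192 unpaired). The call was lost in paired fits without replicate 2 or without replicate 3, and in DESeq2 with pairing. SRF, the DNA-binding partner of the MRTFs, lay between 110 and 116 CPM in all 6 libraries (-0.025, SE 0.05). MRTFB held 24.4 to 32.7 CPM and 22.8 to 25.8 CPM (-0.16, SE 0.10, not called).

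Replicate 1 of the TGF-β group differed from the rest of its group by amounts of the same order as the changes with CXCL10. Its log2 level, minus the mean of TGF-β replicates 2 and 3, was 0.72 for SMTN, 0.50 for ACTG2, 0.48 for TPM3 and 0.32 for VIM. It was -0.98 for LMOD1, -0.63 for DES, -0.50 for CNN1 and -0.35 for ACTA2. The changes with CXCL10 in the paired fit, which share these libraries, were 0.66, 0.38, 0.41 and 0.38 for the first and -1.03, -0.78, -0.34 and -0.43 for the second group of genes. The same difference within the CXCL10 group was 0.38, 0.21, 0.26 and 0.16 for SMTN, ACTG2, TPM3 and VIM, and -1.05, -0.69, -0.74 and -0.56 for LMOD1, DES, CNN1 and ACTA2. What set replicate 1 apart is not in the labels, and its part in these calls was not tested. The unpaired edgeR fit without TGF-β replicate 1 called 12 members higher and 7 lower, beside 1302 and 1046 of all genes. Leaving out any other single library called 0 members and 0 genes in all. In paired fits 18 members were higher and 8 lower without replicate 1, and 5 and 4 without replicate 2 or without replicate 3. Over all genes those fits called 1533 higher and 1313 lower without replicate 1. Without replicate 2 they called 680 and 561, and without replicate 3 they called 539 and 365.

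Some markers of fibroblasts, and a few of perivascular and epithelial cells, also changed. Of the 10 fibroblast markers, all tested, 3 fell and 2 rose. That is 50% called, beside 17.7% of all genes and 39.1% of those with at least 100 CPM, a level all but THY1 reached on average. LUM and DCN, matrix proteoglycans of fibroblasts, fell by 0.32 and 0.25, and COL1A1 by 0.14 (log2, edgeR paired adjusted p = 0.000361, 0.00411 and 0.00835). THY1 rose by 0.43 and COL6A3 by 0.19 (edgeR paired adjusted p = 0.000868 and 0.00571). Of the 5 perivascular markers tested 3 fell and 0 rose, beside 8.04% of all genes, and 13.6% of those with at least 100 CPM, that fell. The 3 were NOTCH3 by 0.29, CSPG4 by 0.25 (edgeR paired adjusted p = 0.00927 and 0.00646) and CNN1, which is also a member. Of 2 kidney epithelial markers tested CDH1, E-cadherin, fell by 1.89 (edgeR paired adjusted p = 0.00898), from 1.55, 1.99 and 3.68 CPM to 0.211, 0.474 and 1.42 CPM, without overlap. None of the 2 endothelial, 3 leukocyte and 1 skeletal muscle markers tested was called. The part of these shifts in the changes of the contractile genes was not tested.

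Most of the other tested muscle-restricted genes had negative changes. Of 16 such genes 9 were tested, 3 fell and 0 rose, beside 8.04% of all genes that fell. Of the 9, 8 had a negative change, beside 51.3% of all genes, and the median was -0.36. ACTC1 (ENSG00000159251), cardiac α-actin, which embryonic and cultured mesenchymal cells can express, held 8.31, 9.15 and 9.39 CPM under TGF-β and 3.94, 5.61 and 4.42 CPM with CXCL10, without overlap. It fell by 0.95 (SE 0.18, edgeR paired adjusted p = 0.00269, 0.161 unpaired). SYNM, the intermediate filament protein synemin that partners desmin and vimentin, fell by 0.34 (SE 0.08), and JPH2, a junctional membrane protein of muscle, by 0.38 (SE 0.10). Both had overlapping groups, with TGF-β replicate 1 at 30.6 CPM of SYNM beside 35.4 CPM in CXCL10 replicate 2. The 9 tested genes had levels of 1.34 to 38.0 CPM on average under TGF-β, and 7 genes had too few counts.

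Scaffolds of stress fibres and focal adhesions went both ways, with 7 that fell and 2 that rose among 29 tested, and a median of -0.061. That is 31.0% called, beside 17.7% of all genes and 39.1% of those with at least 100 CPM. FILIP1L, a filamin-interacting protein, fell by 0.41 (SE 0.06), from 139, 148 and 160 CPM to 94.4, 116 and 127 CPM, without overlap. DESeq2 called it without pairing (adjusted p = 0.0298). SYNPO, synaptopodin, an α-actinin-binding protein of stress fibres, fell by 0.39 (SE 0.05), and TNS3, a tensin of adhesions, by 0.30 (SE 0.05). Of 18 genes for actin monomer binding, severing and capping 2 rose and 1 fell (median 0.058), or 16.7%, which is near the background of all genes. CAP1, which recycles actin monomers, rose by 0.28 (SE 0.05, no overlap), and TMSB10, a β-thymosin that binds monomers, by 0.25 (SE 0.08, overlapping). CFL2, the muscle form of cofilin, fell by 0.20 (SE 0.06, overlapping).

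**Figure D4:**
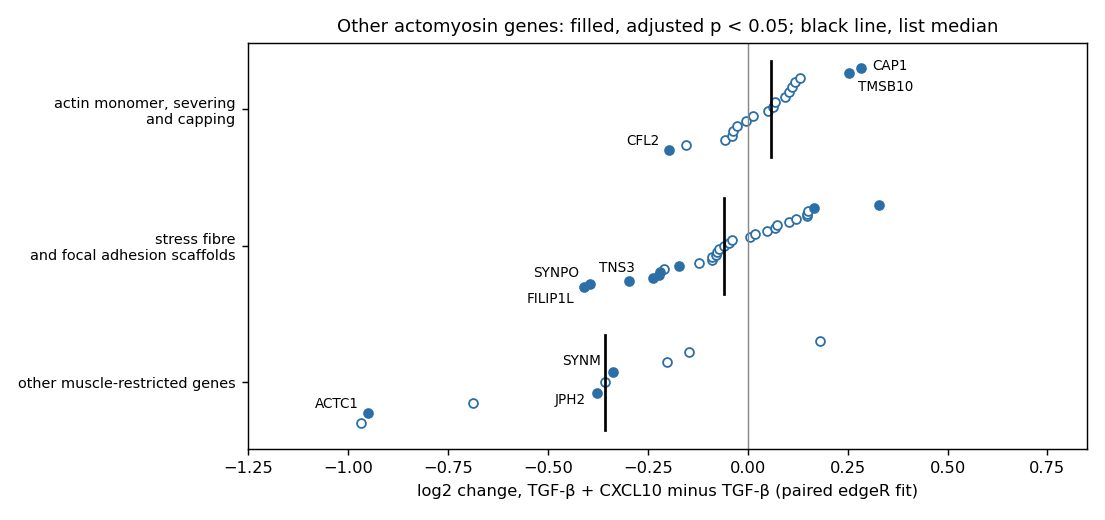
Log2 change (x axis, TGF-β + CXCL10 minus TGF-β, paired edgeR fit) of every tested gene of 3 lists of related genes, with filled points for an adjusted p under 0.05 and a black line at each list's median. The medians are 0.058, -0.061 and -0.36 from top to bottom, and the 3 genes of lowest p in each list are named.

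The authors' deposited table, in which 1.33% of genes with a count have an adjusted p under 0.05, passes VIM and TLN1 among the 42 genes (adjusted p = 0.0222 for both in the authors' deposited table). Its log2 ratios are ratios of mean FPKM, and for 3 of the 40 tested members they differ by over 0.1 from the unpaired changes in counts. For MRTFB the authors' deposited table gives -0.48 where counts gave -0.17 unpaired, for MYLK -0.21 where counts gave -0.025, and for LPP -0.0069 where counts gave -0.17. For MYOCD, which edgeR did not test, the authors' deposited table gives -0.26, while DESeq2 on the counts gave 0.41. The highest gene length implied by counts over FPKM was at most 1.1 times the lowest across libraries for 34 of the 40 tested members. It ranged from 3432 to 8649 bases for MRTFB, from 7633 to 11538 for LPP, from 4432 to 5344 for MYLK and from 4194 to 8517 for MYOCD. For ACTA2, ACTB and VIM the highest implied length was 1.01 times the lowest or less.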

How the data were processed

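Raw counts and FPKM per gene and library were deposited by the authors in 1 table, per the file headers, with the authors' log2 ratio of group mean FPKM, p-value and adjusted p. The submitters' processing notes name GRCm38 and mm10, against the human rows. Neither aligner nor counting tool, annotation or strand setting is given in the sources used here. Libraries were prepared with a SMARTer mRNA kit, per the labels' protocols. Samples were grouped by treatment.

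The quasi-likelihood test of edgeR 4.0.16 (R 4.3.3) was run on deposited counts, with TMM scaling and Benjamini-Hochberg adjustment over the 11970 genes that filterByExpr kept (count of 10, total of 15), at a threshold of 0.05. Log2 CPM used a prior count of 2. SE is the change over the square root of F. The unpaired fit was the main one. Same-numbered libraries correlated in their deviations at 0.330, 0.121 and 0.163, each over the rule of 0.1, so the paired fit is given beside it. Unmatched libraries correlated at 0.082 (TGF-β replicate 3 with CXCL10 replicate 2) and 0.080 (TGF-β replicate 2 with CXCL10 replicate 3). Those that involve replicate 1 lay between -0.223 and -0.165. The link is thus clear for replicate 1 and weak between replicates 2 and 3. The pairing comes from these data, not from the labels. DESeq2 1.42.0 and limma 3.58.1 served as alternatives. The fits were tested on simulated counts with an effect shared by both replicate 1 libraries built in. That test cannot show whether the pairing holds in these data.

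The 42 genes, their classes and the related lists were chosen with earlier results of these data known. Values per library are given for members called with a change of at least 0.3 and for ACTA2, TAGLN, CNN1, MYH11, MYOCD, ACTB and VIM, and of each related list the 3 genes with the lowest paired p are named. One further list is not reported here. Other genes were named, and the level of 100 CPM, the family shares, the sums without ACTA2 and TAGLN and the limits of 0.1 and 1.1 on deposited ratios and lengths were chosen, after values were seen. Counts of 3 equal 0.192 to 0.234 CPM before TMM scaling, for counting error only.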

Additional observations from a re-analysis of the deposited data

How the results depend on the processing

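The unpaired edgeR counts of 0 members and 0 genes in each direction stayed 0 under other scalings, other low-count filters, limma-voom and limma-trend. The replicate block gave 11 members higher and 8 lower, and 1162 and 962 genes in all. With the block, DESeq2 gave 10 and 5 members (656 and 397 genes), limma-trend on log2(FPKM + 1) 4 and 5 (337 and 352), and scaling by library totals alone 10 and 10 (877 and 1359). That limma-trend fit did not call ACTG2 (limma-trend adjusted p = 0.0627) or ACTB (limma-trend adjusted p = 0.109). DESeq2 without the block gave 3 and 1 members (163 and 144 genes). Leaving out single libraries without the block gave 0 to 12 members higher and 0 to 7 lower (0 to 1302 and 0 to 1046 genes), all of them without TGF-β replicate 1. With the replicate block and without replicate 1, 2 or 3, members numbered 18, 5 and 5 higher and 8, 4 and 4 lower, and genes 1533, 680 and 539 higher and 1313, 561 and 365 lower.

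The median of the smooth-muscle-restricted class, -0.11 unpaired, stayed negative in all settings. It was -0.15 with library totals alone (-0.16 with the block), -0.14 with upper-quartile scaling, -0.20 with limma-trend at a pseudocount of 1 (with and without the block) or 0.1, and -0.32 with MYLK and SMTN moved. Leaving out single libraries gave -0.20 to -0.023, and leaving out replicate 1, 2 or 3 with the block -0.054, -0.22 and -0.053. The median of the general class, 0.086 unpaired, stayed positive in all settings. It was 0.043 with library totals alone (0.044 with the block) and 0.044 or 0.045 with limma-trend at a pseudocount of 1 or 0.1. Leaving out single libraries gave 0.059 to 0.12, and leaving out replicate 1, 2 or 3 with the block 0.12, 0.046 and 0.068.

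TAGLN was the 1 gene given in full whose sign turned, uncalled throughout. It was -0.041 with library totals alone (-0.043 with the block), -0.025 with upper-quartile scaling, -0.0035 over genes of at least 5 CPM, and -0.041 with limma-trend in each form. Leaving out single libraries gave -0.032 (without CXCL10 replicate 2) to 0.052 (without CXCL10 replicate 1), with -0.019 and -0.012 without TGF-β replicate 2 and CXCL10 replicate 3. With the block it was -0.056 and -0.013 without replicate 2 and 3. The cause was not tested.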
